A study of Homo sapiens with 6 samples.

Results

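Keratins are the intermediate filament proteins of epithelial cells, and each filament pairs an acidic type I keratin with a basic type II keratin. Simple epithelia, among them those that give rise to ovarian carcinoma, are built on the pair KRT8 and KRT18 with KRT7 and KRT19 beside them. Vimentin (VIM) forms the filaments of mesenchymal cells and is often made beside keratins in carcinoma cells, while sciellin (SCEL) is a precursor of the cornified envelope, the cross-linked protein layer of stratified epithelia. The genes described here are 10 by name: the type II keratins KRT7, KRT8, KRT80 and KRT81, the type I keratins KRT17, KRT18, KRT19 and KRT23, and SCEL and VIM. They were chosen by name with the MFAP5 differences of these same arrays in view, so their differences are given as a description and support nothing further. Every probe set annotated with exactly 1 of these symbols was used, which gave 16 probe sets for 8 of the 10 genes, out of 41091 probe sets with 1 symbol. No probe set carried KRT17 or KRT81 alone, and these genes were not analysed here.

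All samples were OVCA432, a human line established from an ovarian carcinoma of the high grade serous type. Both groups were kept in serum-free RPMI medium for 24 h and then for a further 48 h, with 200 ng/mL recombinant human MFAP5 (microfibrillar associated protein 5, a secreted glycoprotein of matrix microfibrils) in 1 group and the solvent alone in the control group. Each group had 3 independently prepared samples, each on its own Affymetrix U133 Plus 2.0 array. Whether these came from separate cultures is not given, so p-values refer to the spread between these samples and to no other level. The design asks how adding MFAP5 changes the transcripts of these carcinoma cells.

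The values are MAS5 signals, linear intensities that the authors scaled array by array to a common mean. A probe set was tested if its mean log2 signal over the 6 arrays reached the median of all probe sets, and was called when its adjusted p in a limma fit over all 27307 such probe sets was below 0.05. Across all of them, 13.5% were called higher with MFAP5 and 11.8% lower, and the 2 groups did not overlap for 41.0%. As the background of an array the highest signal among its 27 probe sets for Bacillus genes was taken, since human cells make no such RNA; it lay between 26.4 and 55.9. Log2 signals over all probe sets correlated at 0.936 to 0.942 between arrays of 1 group and at 0.931 to 0.936 between groups. The 3' over 5' log2 ratio of the GAPDH control averaged -0.13 in control and -0.10 in MFAP5 arrays (two-sided exact permutation p = 0.5), and that of ACTB 0.30 and 0.28 (exact permutation p = 0.6), in a design that cannot go below 0.1. Control probe sets for 18S ribosomal RNA were higher on all MFAP5 arrays (for the 3' set 12173 to 13946 in control and 17446 to 18920 with MFAP5), and their part in the differences of keratins, sciellin and vimentin was not tested. With 3 arrays a group, precision is set by the number of arrays. In the limma fit the variance of each probe set is also drawn toward a trend over all probe sets (prior 6.15, residual 4 degrees of freedom). The limma p-values and the SEs of log2 differences carry this moderation, unlike the SDs.

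Of the 16 probe sets of keratins, sciellin and vimentin, 9 passed the signal filter, 5 were called higher with MFAP5, none was called lower (limma; 0 also at an unadjusted p below 0.05) and 4 were not called. The 5 that rose were 1 each for KRT7, KRT23, KRT80, SCEL and VIM, and these were also the 5 of the 9 whose groups did not overlap. KRT8, KRT18 and KRT19 were not called. Among all probe sets tested, 13.5% were called higher, 11.8% were called lower and 41.0% had groups without overlap. Nothing is read from the member counts against these shares, because the genes were picked on this contrast. In bulk RNA, more cells that express a gene and more RNA per cell cannot be told apart.

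**Figure D1:**
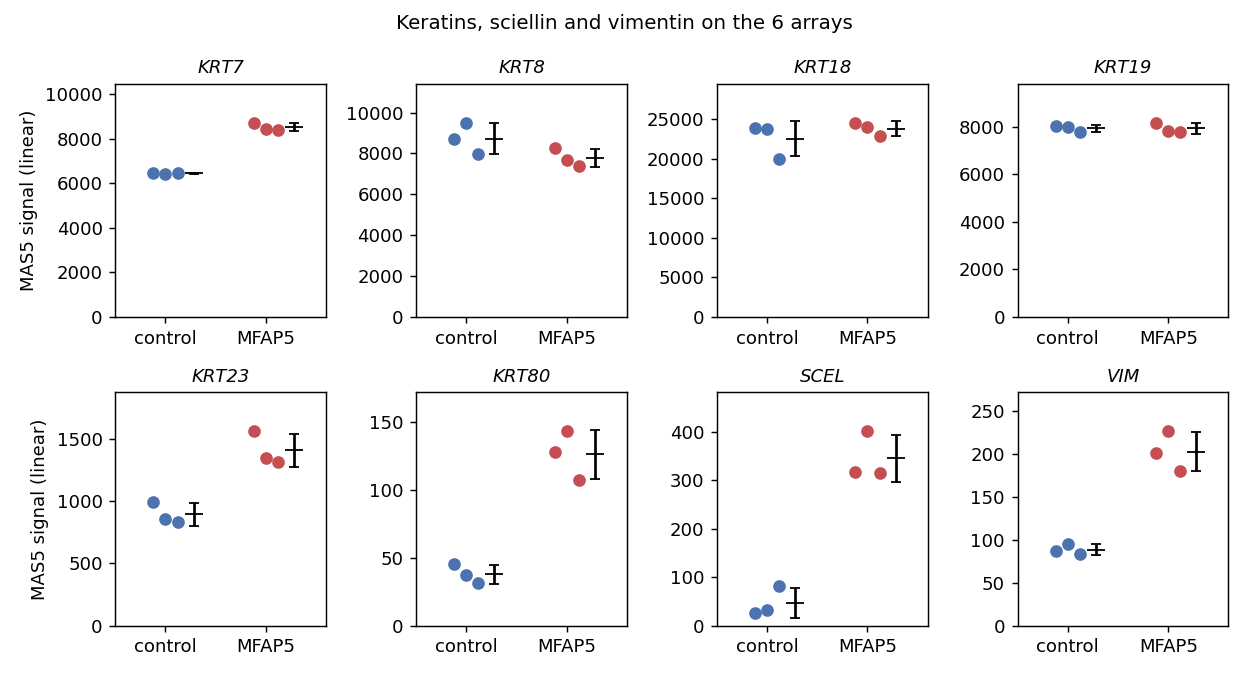
MAS5 signal (linear axis from 0, a separate scale for each gene) of the brightest probe set of each of the 8 measured genes on the 3 control (blue) and 3 MFAP5 (red) arrays; points are arrays, black bars the mean ± SD of 3. The groups lie apart for KRT7, KRT23, KRT80, SCEL and VIM and overlap for KRT8, KRT18 and KRT19.

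KRT18, the type I partner of KRT8, had signals of 23892, 23832 and 20009 on the control arrays and 24614, 24070 and 22844 on the MFAP5 arrays. Control replicate 3 was the low array and the groups overlapped. The log2 difference was 0.08 ± 0.08 (SE; limma 95% interval -0.09 to 0.26, n = 3 each). Its sign turned, with values within 0.06 of 0, under quantile normalization (-0.0022), centring on array medians (-0.06) and without control replicate 3 (-0.0019).

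KRT8, the type II partner of KRT18, had signals of 8712, 9516 and 7962 in control and 8280, 7686 and 7367 with MFAP5. The 2 lower MFAP5 arrays lay under all control arrays, but MFAP5 replicate 1 lay within the control range. The log2 difference was -0.16 ± 0.08 (SE; limma 95% interval -0.34 to 0.01, n = 3 each), which was not called. It was called lower without control replicate 3 (log2 difference -0.23, limma adjusted p = 0.0343) and with centring on array medians (-0.30, adjusted p = 0.00829). Centring on array medians moved the median log2 difference of all probe sets from 0.02 to -0.12. With it 5975 of 27307 probe sets were called lower, against 3209 in the main fit. The probe sets of KRT8 and KRT18 are of the _x_at type, whose probes can match other transcripts, and both genes have processed pseudogenes. The pair of probe sets annotated to the pseudogene KRT8P12 were not called either, with log2 differences of -0.15 and -0.39.

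KRT19, the smallest keratin and a type I keratin of simple and ductal epithelia, had signals of 8029, 7993 and 7754 in control and 8173, 7799 and 7795 with MFAP5. These are the closest groups among the keratins measured, with means of 7926 ± 150 and 7922 ± 217 (SD, n = 3 each) and a log2 difference of -0.0008 ± 0.06 (SE; limma 95% interval -0.13 to 0.13). The interval leaves room for changes of up to 0.13 on the log2 scale in either direction. The other KRT19 probe set stayed at or under the Bacillus background on all 6 arrays and was not tested.

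KRT7, a type II keratin of simple epithelia used with KRT20 to tell the origin of carcinomas, had signals of 6472, 6441 and 6443 in control and 8733, 8459 and 8400 with MFAP5. All 3 MFAP5 arrays lay above all control arrays, and the spread within a group was small beside the gap (6452 ± 17.6 and 8531 ± 177, SD, n = 3 each). KRT7 rose 1.32-fold, a log2 difference of 0.40 ± 0.06 (SE). The call was lost with centring on hybridisation controls (log2 difference 0.35, limma adjusted p = 0.0626) and when the log2 signals of all 4 KRT7 probe sets were averaged (0.46, adjusted p = 0.159). Those other 3 probe sets were dim and their groups overlapped. Signals ran from 24.8 to 77.9 for the only other tested one, which pointed down (log2 difference -0.39, not called). For the rest they ran from 14.0 to 70.8 and 14.5 to 47.1 (log2 differences 1.11 and 0.71, not tested).

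KRT23, a type I keratin found in some adenocarcinomas, had signals of 994, 852 and 829 in control and 1558, 1348 and 1308 with MFAP5. The groups did not overlap, and in each of them replicate 1 was the highest. KRT23 rose 1.58-fold, from 892 ± 89.4 to 1405 ± 135 (SD, n = 3 each; log2 difference 0.66 ± 0.10, SE). It has 1 probe set, and the call was kept in all 15 alternative analyses, with log2 differences from 0.52 to 0.74.

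KRT80, a type II keratin of several epithelia, was dim in control cells, with signals of 45.3, 37.1 and 31.6, and reached 128, 143 and 107 with MFAP5. Only control replicate 2 exceeded the Bacillus background of its array, whereas all 3 MFAP5 arrays did. The control signals lay under the filter level of 53.7, so the probe set was tested only because of its MFAP5 signals. The measured fold was 3.34 (log2 difference 1.74 ± 0.26, SE, n = 3 each), and 3.02 with control signals under the Bacillus background raised to it. It was 2.00 with 50 added to each signal, a setting that damps the folds of dim probe sets.

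SCEL had the largest fold of the 8 genes, with signals of 26.5, 32.9 and 82.7 in control and 318, 402 and 316 with MFAP5. Control replicate 3 stood above the other control arrays but was still far under the lowest MFAP5 array. The control mean of 47.4 lay under the filter level, so this probe set too was tested only because of its MFAP5 signals. SCEL rose 8.24-fold, a log2 difference of 3.04 ± 0.37 (SE, n = 3 each), on a probe set that exceeded the Bacillus background on 2 of 3 control and 3 of 3 MFAP5 arrays. With control signals under the Bacillus background raised to it the fold was 6.43. With 50 added to each signal it was 4.17, and leaving out 1 array at a time gave 6.58-fold to 11.6-fold. A further SCEL probe set, under the filter and not tested, gave 9.97, 10.7 and 7.51 in control, all under background, and 31.5, 52.5 and 46.2 with MFAP5, all above it. With control signals raised to the background of their arrays its fold was 1.10, but every MFAP5 signal lay under the background of control replicate 1 (55.9). Of the remaining SCEL probe sets, 1 was above background on 1 MFAP5 array only and the other on none.

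VIM had signals of 87.1, 95.1 and 83.4 in control and 201, 226 and 180 with MFAP5, above background on all 6 arrays. The groups did not overlap and the lowest MFAP5 array was well above the highest control array. VIM rose 2.28-fold, from 88.5 ± 5.98 to 203 ± 23.0 (SD, n = 3 each; log2 difference 1.19 ± 0.18, SE). With 50 added to each signal the fold was 1.82. The other VIM probe set (20.3 ± 5.01 and 18.2 ± 8.58) was above background on none of the 6 arrays and was not tested.

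**Figure D2:**
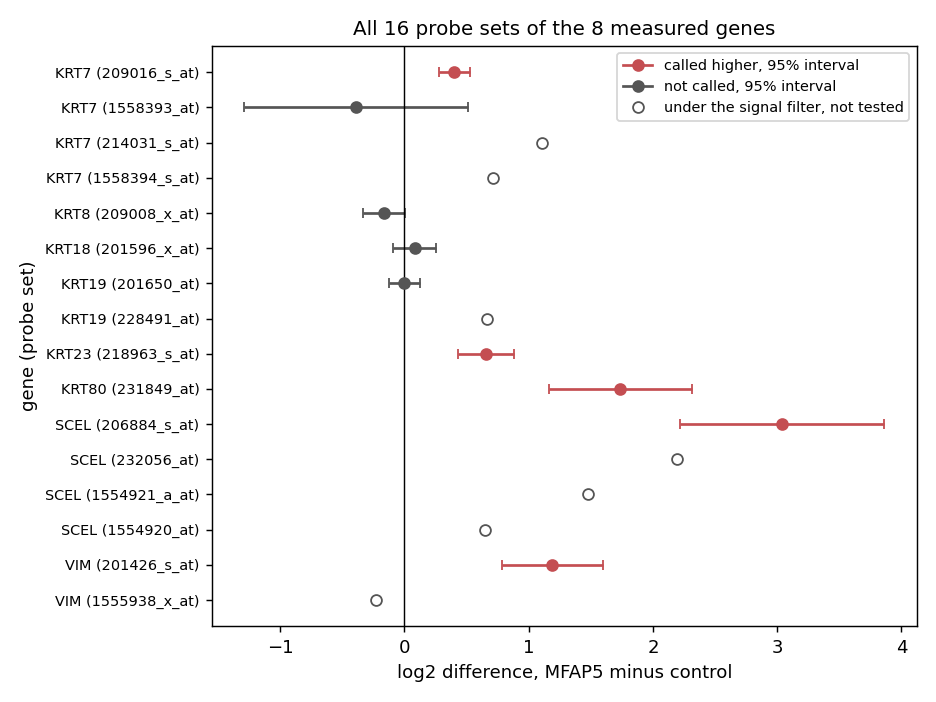
Log2 difference of MFAP5 minus control (horizontal axis) for all 16 probe sets. Filled points passed the signal filter and carry the 95% interval of the limma fit, red where called higher; open points were under the filter and not tested. SCEL at 3.04, KRT80 at 1.74 and VIM at 1.19 lie farthest to the right among the tested probe sets, and KRT8, KRT18 and KRT19 have intervals that include 0.

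Promoter windows of 300 bases (250 before the RefSeq start and 50 after it, GRCh38.p14) were listed for 3 of the 10 genes, KRT8, SCEL and VIM. Those of SCEL and VIM are shown because their transcripts differed most among genes with a listed window; capitals mark the only matches to the 4 motifs searched on both strands, namely TATAAA, the core promoter element, GGGCGG, known as the GC box, TGANTCA, bound by AP-1, and TGACGTCA, the cyclic AMP response element. The SCEL window is chr13:77535456-77535755, plus strand, and the VIM window is chr10:17227991-17228290, plus strand.
SCEL: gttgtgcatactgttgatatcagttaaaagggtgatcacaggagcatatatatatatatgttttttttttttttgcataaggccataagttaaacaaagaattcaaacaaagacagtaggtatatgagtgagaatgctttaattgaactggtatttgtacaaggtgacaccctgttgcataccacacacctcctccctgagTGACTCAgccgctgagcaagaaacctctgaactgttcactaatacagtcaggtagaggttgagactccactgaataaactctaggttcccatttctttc
VIM: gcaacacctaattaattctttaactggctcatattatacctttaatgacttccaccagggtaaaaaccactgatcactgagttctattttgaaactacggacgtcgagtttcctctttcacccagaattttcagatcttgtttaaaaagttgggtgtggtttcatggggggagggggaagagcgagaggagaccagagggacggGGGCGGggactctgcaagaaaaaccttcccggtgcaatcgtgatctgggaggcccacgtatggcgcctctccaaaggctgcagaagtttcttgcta

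The SCEL match was to the AP-1 letters, with its first base at -49 from the start, and 7.71% of the 35116 windows in the RefSeq table hold these letters. The VIM match was to the GC box, first base at -46, which 45% of windows hold. The KRT8 window held none of the 4 motifs; TATAAA occurs in 11.5% and TGACGTCA in 1.85% of windows. The matches describe letters in these windows, not binding.

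Ratios of 2 genes on the same array do not move with the scaling of that array. The log2 ratio of KRT8 over KRT18 was -1.46, -1.32 and -1.33 on the control arrays and -1.57, -1.65 and -1.63 on the MFAP5 arrays. The groups did not overlap, and the ratio was lower with MFAP5 by a mean of 0.25 on the log2 scale (-0.25), although neither gene was called. KRT7 over KRT19 went from -0.30 ± 0.03 to 0.11 ± 0.01 (SD, n = 3 each) and KRT7 over KRT18 from -1.80 ± 0.14 to -1.48 ± 0.03. VIM over KRT8 went from -6.62 ± 0.04 to -5.27 ± 0.16, a 2.56-fold higher ratio, and VIM over KRT18 was 2.15-fold higher (-7.99 ± 0.10 to -6.88 ± 0.13). No overlap was seen in any of the 5 ratios, which share genes. All but KRT8 over KRT18 set KRT7 or VIM, picked on this contrast and already without overlap, over genes not called. Their separation therefore largely repeats that of KRT7 and VIM. The ratios were not tested. Groups without overlap were seen for 41.0% of single probe sets, a share that is no baseline for ratios of picked genes. The absolute level of a ratio carries no meaning across different probe sets.

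**Figure D3:**
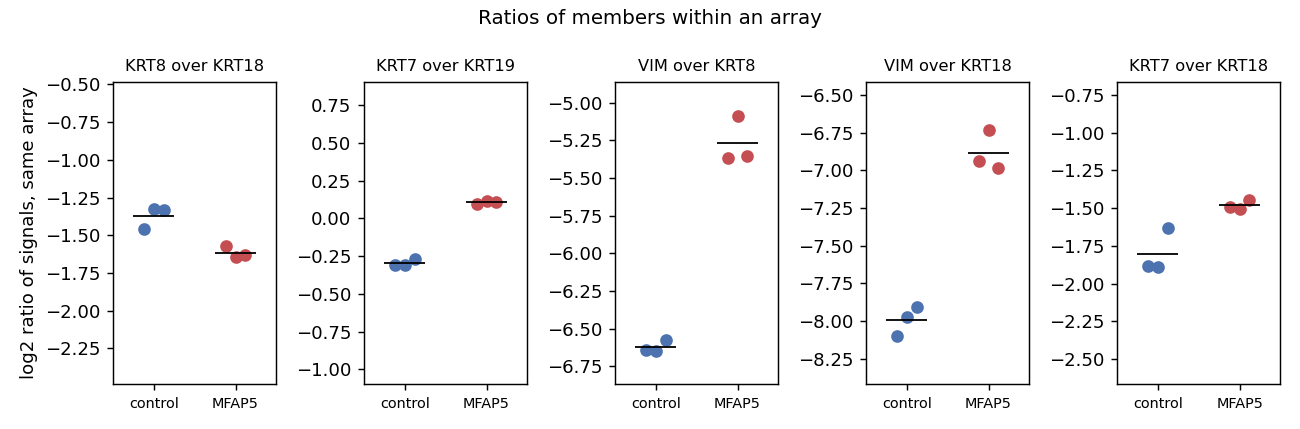
Log2 ratio of 2 genes on the same array (each panel spans 2 log2 units), for 3 control (blue) and 3 MFAP5 (red) arrays, with the group mean as a line. All 5 ratios separate the groups; KRT8 over KRT18 is lower with MFAP5 and the other 4 are higher.

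The values of neighbouring keratin genes are given side by side, and differences between neighbours were not tested. KRT80 and KRT7, next to each other in the RefSeq gene order, had log2 differences of 1.74 and 0.40. KRT8 and KRT18, also next to each other, had -0.16 and 0.08. KRT19 lies between KRT15 and KRT9, whose log2 differences were -0.07 and 0.45 (limma adjusted p = 0.892 and 0.489, n = 3 each), and none of these 3 was called.

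The other keratins on the array were mostly too dim to test. Of 21 other type I keratins 4 passed the filter, and of 17 other type II keratins 1 did. With 1 probe set per gene, 14.6% of all 12216 genes tested were called higher and 15.3% lower, against a median log2 difference of -0.0084. KRT13, a type I keratin of stratified mucosa, fell from 93.3 ± 16.8 to 46.6 ± 11.2 (SD, n = 3 each; log2 difference -1.01 ± 0.28, SE; limma adjusted p = 0.024). That call did not survive testing all probe sets without a filter (adjusted p = 0.0648), nor leaving out control replicate 1 (0.0507), 2 (0.0501) or 3 (0.088) or MFAP5 replicate 1 (0.0643) or 2 (0.0707). The KRT13 mean of 46.6 with MFAP5 lay under the filter level, so its probe set was tested only because of its control signals. Without control replicate 3, 1 other type I keratin was called higher. KRT4, the usual type II partner of KRT13, was at 145 ± 9.40 in control and 169 ± 6.39 with MFAP5 and was not called (limma adjusted p = 0.335, n = 3 each). KRT16, a type I keratin of stressed and healing epidermis, was under the filter and not tested. Its signals of 49.4, 9.93 and 21.4 in control were all under the background of their arrays. Those of 54.6, 65.6 and 70.4 with MFAP5 were all above that of theirs. With control signals raised to background the KRT16 fold was 1.64, but MFAP5 replicate 1 lay under the background of control replicate 1 (55.9). KRT72, a type II keratin of hair follicles and also not tested, was above background on 0 of 3 control and 3 of 3 MFAP5 arrays (23.8 ± 6.97 and 38.7 ± 7.10, SD, n = 3 each). The background itself differed between arrays (26.4 to 55.9). With control signals raised to it the KRT72 fold was 0.99, so no rise above background is shown. KRT5 and KRT14, the pair of basal stratified epithelium, were under the filter, at 3.88 to 34.9 and 7.33 to 26.3 over the 6 arrays.

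Among 16 other intermediate filament genes 10 were tested, 1 was called higher, 2 lower and 7 were not called (median log2 difference -0.20). The lamins accounted for all 3 calls. LMNB1, a lamin of the nuclear envelope, fell from 4137 ± 415 to 3024 ± 138 (SD, n = 3 each; log2 difference -0.45 ± 0.08, limma adjusted p = 0.00294). LMNB2 fell by 0.35 on the log2 scale (limma adjusted p = 0.0173) and LMNA, the A-type lamin, rose by 0.33 (adjusted p = 0.0254), while none of the 4 other LMNA probe sets tested was called. LMNB2 lost its call without control replicate 2 (0.0716) or MFAP5 replicate 2 (0.0543) or 3 (0.0613), without an intensity trend (0.0709) and with centring on hybridisation controls (0.0701). LMNA lost it without control replicate 2 (0.0832) or 3 (0.0565) or MFAP5 replicate 1 (0.0778) or 2 (0.0982), without a trend (0.0962), with the mean of its probe sets (0.69), and with centring on array medians (0.144) or hybridisation controls (0.227). For the whole list, centring on array medians gave 0 higher and 5 lower, and centring on hybridisation controls 0 higher and 1 lower.

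Proteins that tie keratin filaments to desmosomes and to the cytoskeleton were tested for 16 of 22 listed genes, of which 2 were higher, 1 lower and 13 not called (median log2 difference -0.12). Periplakin (PPL), a plakin of desmosomes and of the cornified envelope, rose from 959 ± 119 to 1575 ± 77.7 (SD, n = 3 each; log2 difference 0.72 ± 0.10, SE, limma adjusted p = 0.000591). MACF1, a spectraplakin that links actin and microtubules, rose by 0.30 (limma adjusted p = 0.00563), though none of its 5 other probe sets tested was called. Its call was lost with the mean of its probe sets (0.388), centring on array medians (0.0698) and centring on hybridisation controls (0.282). Trichoplein (TCHP), a keratin-binding protein, fell by 0.47 (adjusted p = 0.00414). Among the genes not called by their brightest probe set, PLEC had another probe set called higher, and DST and PKP4 each had another called lower. With centring on array medians 8 genes of this list were called lower and 1 higher. That scaling moves the median log2 difference of all probe sets from 0.02 to -0.12. The replicate block gave 4 lower, and 3 were lower without control replicate 3, 2 without MFAP5 replicate 1.

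SCEL and PPL, both components of the cornified envelope and both called higher, were counted above and are not in the list of other cornified envelope genes and their enzymes. Of the 47 genes in that list, 31 had a probe set and 7 were tested; none was called in either direction (limma; 0 also at an unadjusted p below 0.05), with a median log2 difference of 0.37. ALOX12B, a lipoxygenase of the epidermal barrier, had 73.1 ± 26.3 in control and 120.1 ± 47.4 with MFAP5 (limma adjusted p = 0.199, n = 3 each). PI3, the protease inhibitor elafin, had 455 ± 13.8 and 520 ± 37.8 (adjusted p = 0.216, n = 3 each). Without MFAP5 replicate 3, 1 gene of the list was called higher.

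Epithelial identity genes were tested for 18 of 21, with 6 higher, 1 lower and 11 not called (median log2 difference 0.16). RAB25, an epithelial GTPase of membrane recycling, doubled from 2227 ± 88.8 to 4453 ± 356 (SD, n = 3 each; log2 difference 0.997 ± 0.07, SE, limma adjusted p = 1.3e-05). The tight junction protein CLDN3 rose by 0.72 (limma adjusted p = 0.000654), the protease inhibitor SPINT1 by 0.48 (adjusted p = 0.000744) and AP1M2, an adaptor of epithelial sorting, by 0.42 (adjusted p = 0.0069). OVOL2, a repressor of mesenchymal genes, fell by 0.31 (adjusted p = 0.00964). The other tested probe set each of CLDN3, SPINT1 and AP1M2 was also called higher. Among the genes not called by their brightest probe set, ESRP1 and CDS1 each had another probe set called lower. Centring on hybridisation controls left 3 higher and 0 lower, and AP1M2 (0.11) and OVOL2 (0.117) were among the calls lost. OVOL2 was also not called with the mean of its probe sets (0.166). Centring on array medians gave 3 lower, and the replicate block and the fits without control replicate 1 or 3 gave 2.

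Mesenchymal genes other than VIM were mostly dim: 7 of 26 were tested, 2 were higher, none lower (limma; 0 also at an unadjusted p below 0.05) and 5 not called, with a median log2 difference of -0.26. S100A4, a calcium-binding protein of motile cells, rose from 11695 ± 789 to 25709 ± 990 (SD, n = 3 each; log2 difference 1.14 ± 0.07, SE, limma adjusted p = 2.77e-06). TAGLN, the actin-binding protein transgelin, rose by 0.68 (limma adjusted p = 0.000485). Both kept their calls in every alternative in which they were tested. Without control replicate 1, 1 gene of the list was called lower.

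Regulators and binding partners of keratins were tested for 11 of 12, with 4 higher, 1 lower and 6 not called (median log2 difference 0.0005). KLF4, a transcription factor of differentiating epithelium, rose from 222.1 ± 43.0 to 513 ± 53.3 (SD, n = 3 each; log2 difference 1.22 ± 0.16, SE, limma adjusted p = 0.000441). SFN, the epithelial 14-3-3 protein that binds keratins, rose by 0.41 (adjusted p = 0.00337), as did both its other tested probe sets, and NDEL1, a dynein regulator, rose by 0.40 (adjusted p = 0.0079). TFAP2A, the transcription factor AP-2 alpha, fell by 0.39 (adjusted p = 0.00355), but its other tested probe set was not called. Centring on hybridisation controls ended the calls of TFAP2A (0.0536) and NDEL1 (0.16), as did the mean of all probe sets (0.66 and 0.067). Each of these settings left 2 higher and 0 lower. Centring on array medians gave 3 lower, and the 75% filter and the replicate block gave 2.

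**Figure D4:**
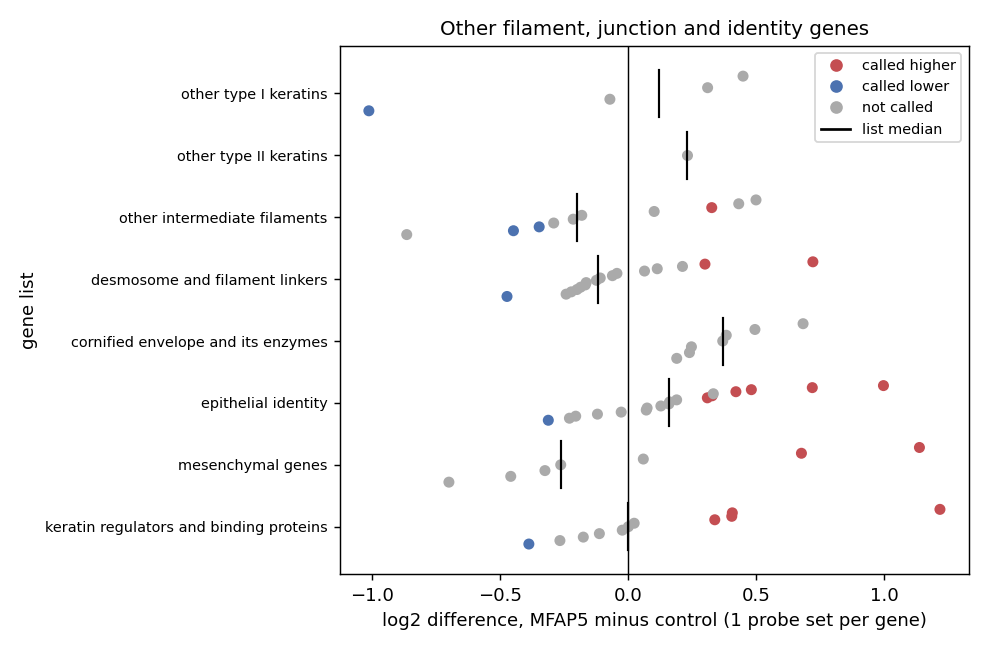
Log2 difference of MFAP5 minus control (horizontal axis, 1 probe set per gene) for the tested genes of 8 lists; red and blue points were called higher and lower, grey ones not called, and black lines are list medians. RAB25 and S100A4 lie near 1 and KLF4 beyond it, and none of the 7 tested genes of the cornified envelope list, which holds neither SCEL nor PPL, was called.

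The labelled cell type was checked against its markers. All 8 epithelial markers (EPCAM, CDH1, CLDN3, CLDN4, CLDN7, KRT8, KRT18 and KRT19) exceeded the Bacillus background on all 6 arrays, with a summed signal of 77979 to 89048 in control and 89147 to 99283 with MFAP5; CLDN3 and EPCAM (log2 difference 0.31, limma adjusted p = 0.0489) were the 2 called higher. EPCAM lost its call without control replicate 1 (0.111) or 3 (0.102) or MFAP5 replicate 1 (0.152) or 2 (0.107), without a filter (0.0889) and without a trend (0.152). It also lost it with quantile normalization (0.0528), centring on array medians (0.19) and centring on hybridisation controls (0.143). In the fit of probe set means per gene it was not called either (0.0691). EPCAM has 1 probe set, so its log2 difference there was the same 0.31. The 4 Mullerian and serous markers were above background on all arrays (sums 18223 to 19222 and 21063 to 21449); MUC16, MSLN and PAX8 were called higher and WT1 lower.

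Markers of fibroblast, leukocyte, endothelial and squamous basal cells were low, whereas the mesothelial marker UPK3B was not (496 ± 34.2 in control and 1002 ± 40.6 with MFAP5, SD, n = 3 each). Of 8 fibroblast markers, 2 exceeded background on all 6 arrays (summed signal 288 to 358 in control, 358 to 419 with MFAP5). The only one tested, COL1A1, was not called (170 ± 15.5 and 177 ± 17.7, SD, n = 3 each). None of 3 leukocyte markers did (22.2 to 128 and 70.8 to 135), nor of 3 endothelial (125 to 197 and 172 to 224) or 2 squamous basal ones (14.5 to 35.2 and 12.6 to 54.6). VWF and CDH5 of the endothelial list were tested and not called. Of 3 mesothelial markers, 2 exceeded background on all 6 arrays, and the list had sums of 579 to 683 and 1165 to 1233. UPK3B (log2 difference 1.02) and LRRN4 (0.80) were called higher. CALB2 was under the filter, above background on 2 of 3 control and 3 of 3 MFAP5 arrays. Its groups overlapped (41.8 ± 16.1 and 46.8 ± 7.26, SD, n = 3 each). LRRN4 lost its call without control replicate 1 (0.0662) or MFAP5 replicate 1 (0.0539) or 2 (0.0585). The mesothelial sum lay higher on all MFAP5 arrays, as VIM did. So did the fibroblast sum, by a narrow gap between 358.38, the highest control array, and 358.40, the lowest MFAP5 array. The same held for the epithelial sum (at most 89048 in control, at least 89147 with MFAP5) and the Mullerian and serous sum (19222 and 21063). Leukocyte, endothelial and squamous basal sums overlapped between the groups. The part of any of these sums in the VIM difference was not tested.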

How the data were processed

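Gene expression was measured on 6 Affymetrix U133 Plus 2.0 arrays. The authors deposited 1 linear intensity, the MAS5 signal, per probe set and array; MAS5 is named in the submitters' processing notes and its version is not given in the sources used here. The trimmed mean, leaving out 2% at each end, was the same on all arrays (500.07), which hides any shift common to most transcripts. Per the labels, groups and replicate numbers come from the sample titles.

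Signals were taken to log2 without further scaling. The 62 control probe sets and those with a mean log2 signal under the median (a signal of 53.7) were left out. The rest, 27307, were fitted with limma 3.58.1 in R 4.3.3 (eBayes with an intensity trend, two-sided, Benjamini-Hochberg adjustment, threshold 0.05). The brightest probe set stands for a gene. Symbols come from the platform annotation, which lists 1 symbol for 41091 probe sets, several for 1801 and none for 11721.

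A gene is named if it belongs to the 10. In each other list up to 4 called genes with the largest difference are named, or the 2 with the smallest p where none was called, and up to 3 that go against most calls; KRT5, KRT9, KRT14, KRT15, KRT16 and KRT72 and the pseudogene KRT8P12 were added after their values were seen. The genes and lists were chosen with earlier results of these data known. Protein sequences were not used here, so the planned comparison of protein identity was not made.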

Additional observations from a re-analysis of the deposited data

Results flagged for a closer look

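Control probe sets for ribosomal RNA, which no comparison of keratins, sciellin or vimentin uses, were brighter with MFAP5. The 3' probe set of 18S ribosomal RNA had signals of 13196, 13946 and 12173 on the control arrays and 18920, 18704 and 17446 on the MFAP5 arrays, a 1.40-fold difference. The middle and 5' sets were 1.35-fold and 1.24-fold higher, and 4 of the 6 probe sets for 18S and 28S ribosomal RNA had groups that did not overlap. These differences were not tested, and their part in the other results was not tested either.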

How the results depend on the processing

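KRT23, KRT80, SCEL and VIM kept their direction and call in each alternative in which they were tested (15, 14, 13 and 13 of them), and KRT7 in 13 of 15. For SCEL and VIM the mean of all probe sets of the gene lay under the filter, so that alternative did not test them. With the filter at the 75% quantile SCEL, VIM and KRT80 were not tested, so 2 probe sets of the group were called higher in place of 5; there were 6 without a filter, which tests all 16 probe sets, 4 with hybridisation controls, and 5 whichever array was left out. The number called lower, 0, was 0 to 1 without 1 array and 1 with centring on array medians, KRT8 both times. The sign of KRT19, which was never called, turned under quantile normalization (0.0171), without control replicate 1 (0.0087) or 2 (0.0054) or MFAP5 replicate 2 (0.0104) or 3 (0.0107; -0.0235 to 0.0107 over the 6 such fits) and with the mean of its probe sets (0.33); KRT18 turned to -0.0022 with quantile normalization, -0.0559 with array medians and -0.0019 without control replicate 3 (-0.0019 to 0.13 over the 6 such fits). Over all probe sets, 3679 were higher and 3209 lower; the counts were 2422 and 2830 with the 75% filter, 2302 and 5975 with array medians, 1920 and 2011 with hybridisation controls, and 2532 to 3557 and 2118 to 3117 without 1 array (fewest lower without MFAP5 replicate 2). The cause was not tested. Replicate numbers mark no stated pairing: deviations of same-numbered arrays correlated at 0.09, -0.0071 and 0.17, and 3 of 6 arrays correlated best with their own number. The replicate block gave 4214 higher and 3774 lower, with 5 and 0 for the group. Dim probe sets limit the folds of KRT80 and SCEL most.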
